A study of Mus musculus with 18 samples.

Results

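The 77 genes described here encode protein subunits of the cytosolic ribosome. They were chosen by symbol, as Rpl or Rps followed by digits and at most 1 letter, together with Rplp0, Rplp1, Rplp2 and Rpsa, and leaving out named pseudogenes and the Rps6k kinases. A gene also needed a mean normalized signal of at least 10 over all 18 libraries, which 77 of 83 matching symbols had, out of 35551 genes in the tables and 13258 genes that reached the same minimum. Of the 77 genes, 46 belong to the large subunit and 31 to the small subunit. Rps3a1 and Fau, which also encode ribosomal proteins, fall outside the symbol rule and are given in a separate list.

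The libraries come from AML12 cells, an established line of mouse hepatocytes derived from a mouse that carried a transforming growth factor alpha transgene. Synchronised cells were exposed to pemafibrate, a selective agonist of the nuclear receptor PPAR alpha, or to the vehicle DMSO, and poly(A) RNA was sequenced. There were 3 exposure windows, a 24 h window from T0 to T24 and 6 h windows from T14 to T20 (day-like) and from T24 to T30 (night-like), with DMSO and Pema groups of 3 libraries in each. The dose is not given in the sources used here, and the labels name no genetic change in any group. Libraries carry replicate numbers 1 to 3, so each number has 6 libraries. The labels do not say whether a number marks 1 culture, so a p-value here reflects how the deposited libraries scatter and may hold technical spread alone.

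A ribosome is built from ribosomal RNA and from roughly equal amounts of each of its proteins, in a large subunit that forms peptide bonds and a small subunit that reads the mRNA. In mammals most mRNAs for these proteins begin with a C followed by a run of pyrimidines, the 5' terminal oligopyrimidine or TOP motif, through which mTOR and the RNA-binding protein LARP1 adjust their translation together. Liver cells devote much of their translation to secreted proteins, and each ribosomal protein gene has left many processed pseudogenes in the mouse genome, which matters for how reads are assigned.

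To show what these genes share at their starts, 50 bases around the start are printed for 8 of the genes named in the results that have a pyrimidine run there. Sequences are those of RefSeq on GRCm38.p6, from 30 bases before the annotated start to 20 bases from it, written 5' to 3' on the gene's strand, and capitals mark the longest run of C and T.
Rpl13a, chr7:45128726-45128775, minus strand: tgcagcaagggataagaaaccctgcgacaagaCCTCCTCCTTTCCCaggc
Rps26, chr10:128626487-128626536, minus strand: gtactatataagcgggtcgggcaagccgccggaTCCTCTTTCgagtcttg
Rpl18, chr7:45718041-45718090, plus strand: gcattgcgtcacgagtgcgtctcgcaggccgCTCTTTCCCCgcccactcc
Rpl28, chr7:4792935-4792984, plus strand: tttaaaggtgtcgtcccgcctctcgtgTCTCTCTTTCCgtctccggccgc
Rplp2, chr7:141447621-141447670, plus strand: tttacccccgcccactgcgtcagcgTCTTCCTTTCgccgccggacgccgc
Rpl15, chr14:18270967-18271016, minus strand: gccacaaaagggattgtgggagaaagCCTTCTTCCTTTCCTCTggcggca
Rpl38, chr11:114668550-114668599, plus strand: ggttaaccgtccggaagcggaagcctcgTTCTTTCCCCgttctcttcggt
Rps6, chr4:86857348-86857397, minus strand: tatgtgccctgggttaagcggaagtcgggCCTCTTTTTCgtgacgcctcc

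RefSeq promoters were matched for 57 of the 77 genes. A run of at least 8 C or T in this 50-base stretch was present in 30 of the 57 (52.6%). The shares were 22.9% of all 27025 genes with a promoter and 23.3% of the tested genes among them. A gene counted if any of its promoters matched. In the whole promoter, 250 bases before to 50 bases after the start, CCGGAAG on either strand, letters bound by ETS family factors such as GABPA, was found in 42.1% of these genes, 9.93% of all promoters and in 1996 of the 9965 promoters of tested genes. AAGATGG on either strand, the core of the YY1 motif, was found in 15.8%, 7.28% and 8.42%. Matches were counted wherever they lay, overlaps between motifs included, and a match is no evidence of binding.

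The 77 genes held between 2.90% and 3.86% of each library's total normalized signal, which ran from 31461977 to 33884634. The mean over the 18 libraries was 3.52%. The highest level was that of Rplp0, which encodes the stalk base of the large subunit, with a mean signal of 59839. Rpsa, whose product is a small-subunit protein also known as the laminin receptor, followed at 51156, and Rpl13a, known for its release from the ribosome in interferon-treated monocytes, at 43113. The lowest levels were those of Rps27 (214), Rps2 (624) and Rpl5 (1772), all 3 with near-identical copies elsewhere in the genome.

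Just inside the minimum of 10, Rps27 and Rps2 lay more than an order of magnitude above it, and no gene stood close to it. Just outside it, Rpl6l had a mean of 2.17 and Rpl3l, the striated-muscle form of Rpl3, had 0.438. Rpl32l reached 0.276 and Rps4l 0.0556, and Rpl10l and Rpl39l, paralogs known from testis, were listed at 0 in every library. The ubiquitous partners of these paralogs were abundant, with Rpl3 at 9787, Rpl10 at 5793 and the others higher. Rps27l, a p53-responsive relative of Rps27, had a mean of 3370, above the 214 listed under Rps27 and below the 5246 of Rps27 summed with its identical copy Rps27rt.

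Several of the low values were those of genes whose reads could in part be listed under a near-identical copy. A search of GENCODE M21 transcripts found 56 measured genes that matched 39 of the 77 at 95% identity or more over at least 80% of the coding length. Of these copies 48 are annotated as pseudogenes and 8 as protein coding, and their summed signal was 24.6% of that of the 77 genes. In 9 families the ribosomal protein gene itself held under 50% of the family's signal.

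The most unequal family was that of Rps2, which encodes a small-subunit protein near the mRNA entry site. Rps2 held 0.754% of its family's mean signal of 82804, and the pseudogene Rps2-ps13 alone had 57071. Of the 906 coding bases of Rps2, 882 aligned with the pseudogene, which differed from Rps2 at 7 of these. One 60-base stretch, coding bases 394 to 453 of Rps2, is printed from the GENCODE M21 transcripts (GRCm38) to show how few positions separate the pair, with capitals at the bases of the pseudogene that differ. Rps2 lies at chr17:24718116-24721929 on the plus strand and Rps2-ps13 at chrX:52898588-52899469 on the plus strand.
Rps2: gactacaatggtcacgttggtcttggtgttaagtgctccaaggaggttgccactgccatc
Rps2-ps13: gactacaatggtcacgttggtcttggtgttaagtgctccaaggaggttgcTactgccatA

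Rpl5, which with Rpl11 and 5S RNA forms the particle that restrains MDM2, held 6.49% of its family's signal. Its processed pseudogene Gm15500 (chr7:114705217-114706235, minus strand) had a mean of 25519 and was identical to the Rpl5 transcript (chr5:107900502-107909005, plus strand) over 1018 aligned bases, with 0 differences in the 891 coding bases. The first 60 coding bases, printed here once because both genes share them, read as follows.
Rpl5: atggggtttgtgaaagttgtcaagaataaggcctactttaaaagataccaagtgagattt
Rps27 held 4.07% of its family, with 5032 listed under Rps27rt, an intronless copy annotated as protein coding. The shares were 8.17% for Rpl12, 11.7% for Rps18, 23.2% for Rpl10, 30.2% for Rpl3, 40.5% for Rpl27a and 47.2% for Rpl21. For these 9 genes the value in the table is uncertain, since the authors' counting could split reads between a gene and its copies, and fold changes of those named in the results are followed by the value summed with the copies.

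**Figure D1:**
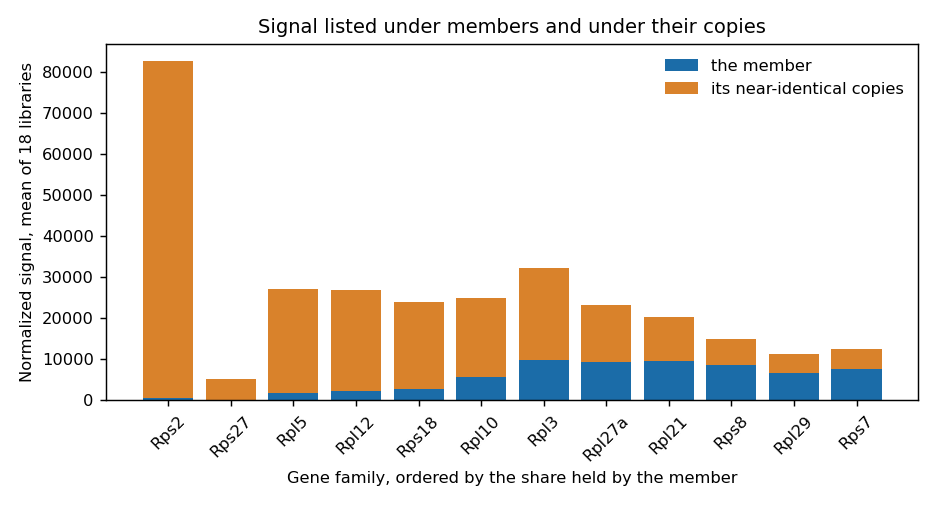
Mean normalized signal over 18 libraries listed under the ribosomal protein gene (blue) and under its near-identical copies (orange), for the 12 families in which the gene holds the smallest share. In the families of Rps2, Rps27, Rpl5, Rpl12 and Rps18 the gene itself holds between 0.754% and 11.7% of the signal.

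Summing copies also narrowed the levels per length. On the scale of signal per kilobase of transcript, the upper quartile of the 77 genes was 2.58 times the lower quartile for the genes alone and 1.85 times with copies added. With copies the Rps2 family stood highest, at 86075 per kilobase, above Rplp1 (53790), Rplp2 (46570) and Rplp0 (44590), which encode the stalk of the large subunit. Rplp1 and Rplp2 form the dimers that recruit elongation factors to the ribosome. Lengths are those of the shortest GENCODE M21 transcript with the longest coding sequence, and for Rps20 that transcript, at 3706 bases, is far longer than its 357 coding bases, so its value of 3228 per kilobase is low for that choice of length.

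The hepatocyte label was checked first. Of 20 hepatocyte markers 15 reached the minimum, led by Krt8 (mean signal 65277), Krt18 (51486) and Trf (45701), with Hnf4a at 7769 and Alb at 4568, while Cps1 (1.55), Apoa2 (0.442) and G6pc (2.27) were near 0. Of 6 cholangiocyte markers 5 reached it, led by Spp1 (41127), Krt19 (9868) and Krt7 (4566), with Epcam at 3.02. Macrophage markers were carried by Cd14 (4930), with Adgre1 and Clec4f at 0 in every library, and in no library did the sum of endothelial or of fibroblast markers exceed 233. In bulk libraries fewer cells of a type and less RNA per cell cannot be told apart.

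The effect of pemafibrate was read within each window, pairing libraries by replicate number. None of the 77 genes passed the threshold in any window, although the members leaned to lower values in the T14 to T20 window. The call rule was an adjusted p of at most 0.05 (limma, Benjamini-Hochberg over the 13258 genes tested). It called 0 of 77 genes in T0 to T24, where 0.0528% of all genes were called, 0 in T14 to T20 (0.0151% of all genes), 0 in T24 to T30 (0.0302%) and 0 for the effect common to the 3 windows (0.189%, of which 0.181% higher and 0.00754% lower). The precision was fine enough to bound the effects: in each window the 95% interval of 75 of the 77 genes lay within 0.3 of 0 on the log2 scale, and the median half-width was 0.10, 0.074 and 0.086 in the 3 windows.

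**Figure D2:**
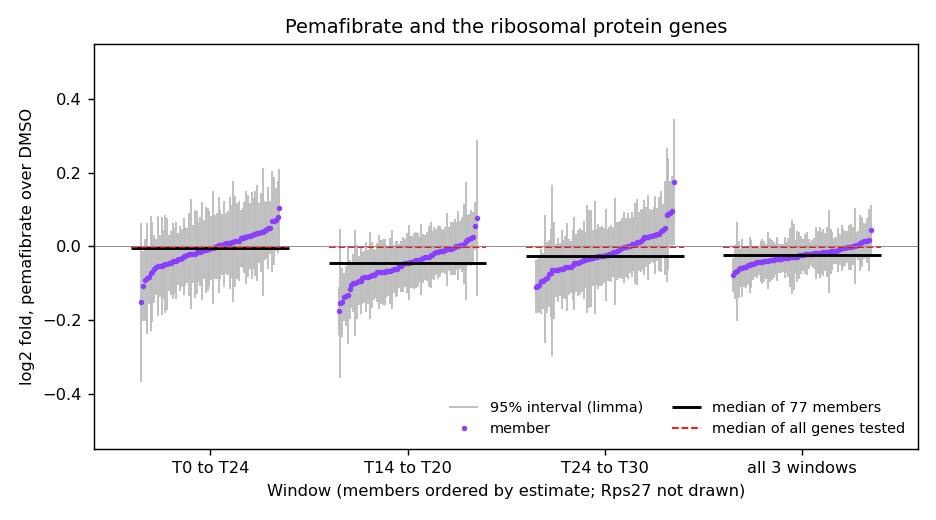
Log2 fold of pemafibrate over DMSO for 76 ribosomal protein genes (points, ordered by estimate) with 95% limma intervals (grey), per window and over the 3 windows, with the median of the 77 genes (black line) and of all genes tested (dashed red). Rps27 is not drawn because its intervals leave the axis. The black line lies at -0.005, -0.044, -0.026 and -0.025 from left to right, and no gene passed the threshold.

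In T0 to T24 the genes showed no common direction. The median log2 fold was -0.005, against -0.003 for all genes, and 41 of 77 estimates were below 0 (53.2%, against 51.7% of all genes). Within pairs the median was 0.049 in replicate 1, -0.091 in replicate 2 and 0.021 in replicate 3, so without replicate 2 it turned to 0.032 and without replicate 1 it was -0.032. At an unadjusted p under 0.05 there were 2 lower genes and 0 higher, where the shares over all genes were 2.01% and 3.16%. These were Rps18, with a log2 fold of -0.11 (SE 0.040, adjusted p = 0.946 by limma), and Rpl15, with -0.08 (SE 0.031, adjusted p = 0.946). For Rps18 summed with its copies the fold was 0.0066. The 2 lower genes became 0 without replicate 2, replicate 3, the variance trend or the replicate block, or with copies summed. Without replicate 2, 12 of the 77 genes had an unadjusted p under 0.05 by limma, 0 of them lower. In that fit 815 of the 13258 genes tested had such a p, and 20 of the 77 estimates were below 0.

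In the 6 h window T14 to T20 the 77 genes were mostly lower with pemafibrate, by small amounts. The median log2 fold was -0.044, against -0.002 for all genes, and 64 of 77 estimates were below 0 (83.1%, against 51.3%). At an unadjusted p under 0.05 there were 15 lower genes and 0 higher, 11 of the large and 4 of the small subunit, where the shares over all genes were 4.45% lower and 3.64% higher. Genes lower in every pair numbered 27 (16% of all genes were), and 2 genes, Rpl7a and Rps7, were higher in every pair (14.6%). The members rise and fall together across libraries, so such counts are not counts of independent genes. The medians within pairs were -0.044, 0.002 and -0.074 in replicates 1, 2 and 3, so the lean was seen in replicates 1 and 3. The count of 15 was 17, 20 and 5 without replicate 1, 2 or 3. Scaled to the signal outside the members it was 20, and when the windows shared 1 fit it was 9. It was 3 without the variance trend and 0 without the replicate block.

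Rpl30, a large-subunit protein with its own feedback on splicing in yeast, had the smallest p in this window. Its signal in DMSO was 10198, 12099 and 13561 in replicates 1, 2 and 3, and in pemafibrate 9243, 10685 and 11774. Pemafibrate was lower in each pair, while the 2 groups overlapped. The log2 fold was -0.18 (SE 0.028, 95% interval -0.24 to -0.11, adjusted p = 0.249 by limma). Rpl37, a zinc-finger protein of the large subunit, had signals of 8680, 10365 and 11130 in DMSO and 7844, 9606 and 9985 in pemafibrate. Again each pair was lower and the groups overlapped, with a log2 fold of -0.14 (SE 0.028, adjusted p = 0.396 by limma).

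Of the next genes by p in T14 to T20, Rpl38 had a log2 fold of -0.13 and Rps23, a decoding-centre protein, -0.15 (adjusted p = 0.523 by limma for both). The 9 members with a coding length under 300 bases, Rpl41 and Rpl39 among them, had a median of -0.086. The 232 other genes of that length had -0.015. Members of 300 to 600, 600 to 900 and 900 to 1500 coding bases had medians of -0.044, -0.016 and -0.063. The same 9 members had 0.036 in T0 to T24 and 0.0007 in T24 to T30. The other cytosolic ribosome components outside the symbol rule were lower for 7 of 7 genes (median -0.052; Fau -0.12, adjusted p = 0.551 by limma). Of 28 ribosome biogenesis genes 27 had estimates below 0, with a median of -0.039, led by Dkc1, the pseudouridine synthase (-0.11, adjusted p = 0.565), and none was called. TOP translation factors had a median of -0.014, mitochondrial ribosomal protein genes -0.012, and regulators of ribosomal protein synthesis 0.013. The 13 mitochondrially encoded transcripts had a median of 0.10, with 11 of 13 estimates above 0. Their part in the members' values was not tested.

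In T24 to T30 the median log2 fold was -0.026, with -0.001 for all genes, and 51 of 77 estimates were below 0 (66.2%, against 50.3%). Genes at an unadjusted p under 0.05 were 5 lower and 3 higher, where the shares over all genes were 3.64% and 3.82%, and 16 were lower and 7 higher in every pair (15.5% and 14.9% of all genes). Without replicate 1, 2 or 3 the 5 lower genes became 10, 7 and 2, and without the variance trend or the replicate block 0. The median was -0.012 without replicate 3. Rps24, a small-subunit protein mutated in Diamond-Blackfan anaemia, had the smallest p. Its signal was 15702, 14820 and 15338 in DMSO replicates 1, 2 and 3 and 14691, 13803 and 14021 in pemafibrate. Here the groups did not overlap, and the log2 fold was -0.11 (SE 0.030, adjusted p = 0.632 by limma). Rpl15 (-0.11) and Rpl24 (-0.11, adjusted p = 0.634 for both) came next. Rpsa had -0.09 (adjusted p = 0.664).

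Over the 3 windows together 66 of 77 estimates were below 0 (85.7%, against 52.4% of all genes), with a median of -0.025 and 7 lower and 0 higher genes at an unadjusted p under 0.05 (3.02% and 3.42% of all genes). The genes were Rpl15, Rps14, Rps10, Rpsa, Rplp2, Rps13 and Rps20. Their number was 15, 4 and 2 without replicate 1, 2 or 3, and 1 without the variance trend. It was 3 with the coding length trend removed and 0 without the replicate block. The common fit took pairs of the same number in different windows as independent. With windows averaged within each number it was 11, where 1014 of the 13258 genes tested had such a p in either direction. The median lay between -0.037 and -0.016 without 1 replicate. Rpl15, a large-subunit protein mutated in some cases of Diamond-Blackfan anaemia, had a log2 fold of -0.08 (SE 0.021, adjusted p = 0.41 by limma). Its DMSO signals were 12711, 14676 and 15640 in T0 to T24, 13962, 14590 and 16919 in T14 to T20, and 16112, 14979 and 17195 in T24 to T30. The pemafibrate signals were 12236, 13588 and 14775, then 14045, 14932 and 14996, then 14603, 13993 and 16247. Rpl15 was thus lower in every pair of T0 to T24 and of T24 to T30, and in T14 to T20 it was lower in replicate 3 alone. No gene was lower in all 9 pairs, and 0.302% of all genes were.

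Among the stalk genes the common effect was -0.002 for Rplp0, 0.003 for Rplp1 and -0.044 for Rplp2 (adjusted p = 0.995, 0.994 and 0.723 by limma). Rpl5 had -0.03 and Rpl11 -0.03 (adjusted p = 0.889 and 0.896), and Rpl5 summed with its copy -0.02. Rps6, the substrate of the S6 kinases, had -0.03 (adjusted p = 0.827). Rpl3 had -0.02 and Rps4x -0.01 (adjusted p = 0.95 and 0.941), and Rpl3 summed with its copy -0.02. Rps27, with reads mostly under its copy, had -0.19 with an SE of 0.37, and 0.00055 with an SE of 0.031 when summed with it.

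Differences of the pemafibrate effect between windows were tested on all libraries. For none of the 3 differences did limma call any of the 77 genes, nor any of the 13258 tested (0%). For T14 to T20 minus T24 to T30, 8 of the 77 had an unadjusted p under 0.05 with a negative difference and 1 with a positive one (5.02% and 4.22% of all genes), and 47 estimates were below 0 (50.3% of all genes). Rps2 had the smallest p, with -0.27 (SE 0.088, adjusted p = 0.418), which was -0.047 (SE 0.059) for the sum of Rps2 and its copies. For T0 to T24 minus T14 to T20 there were 5 positive and 0 negative (2.81% and 2.12%), with 21 estimates below 0 (49.7%), led by Rpl30 with 0.28 (SE 0.050, adjusted p = 0.862). For T0 to T24 minus T24 to T30 there were 1 positive and 2 negative (4.07% and 3.9%), with 27 estimates below 0 (49.8%), led by Rps2 with -0.25 (adjusted p = 0.595), which was 0.014 for the sum of Rps2 and its copies. The median of T0 to T24 minus T14 to T20 was 0.037, and it was 0.0046, 0.096 and 0.0057 without replicate 1, 2 or 3.

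The replicate numbers separated the ribosomal protein genes far more than pemafibrate did. In the libraries of replicate 1 the 77 genes held 3.18% ± 0.210 (SD, n = 6) of the signal, in replicate 2 3.71% ± 0.114 and in replicate 3 3.66% ± 0.126. The highest library of replicate 1 was at 3.42% and the lowest of the others at 3.504%, so replicate 1 lay below both other numbers in every group and did not overlap them. With near-identical copies added the means were 3.95%, 4.63% and 4.57%.

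**Figure D3:**
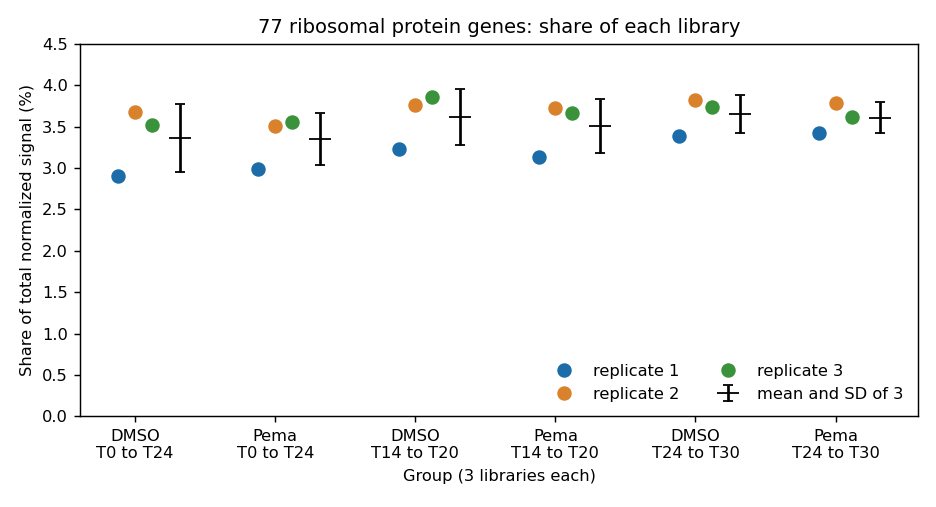
Share of the total normalized signal (%) held by the 77 ribosomal protein genes in each of the 18 libraries, by group, with points coloured by replicate number and the mean ± SD of each group's 3 libraries in black. Replicate 1 lies between 2.90% and 3.42% and is the lowest of its group in all 6 groups, while replicates 2 and 3 lie between 3.504% and 3.86%.

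Between replicate 2 and replicate 1, limma called 66 of 77 genes higher and 1 lower, where 22.7% of all genes were called higher and 22.4% lower. The median log2 fold was 0.23, against -0.002 for all genes, and 2 estimates were below 0 (50.4% of all genes). Between replicate 3 and replicate 1 it called 71 higher and 1 lower (26.7% and 24.8% of all genes), with a median of 0.26. These contrasts share the replicate 1 libraries, so they are not independent. Replicates 3 and 2 differed little, with 12 genes called higher and 2 lower (22.5% and 21.5% of all genes) and a median of 0.031, which turned to -0.010 when libraries were scaled to the signal outside the members. The genes higher in all 6 groups numbered 56 for replicate 2 over 1 (18.9% of all genes), 61 for 3 over 1 (22%) and 14 for 3 over 2 (21.1%).

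Rpl13a showed the largest difference of replicate 2 over 1 among the 77. Its signal ran from 29143 over a median of 33648 to 38925 in the 6 libraries of replicate 1, from 43114 over 48252 to 56722 in replicate 2, and from 44241 over 46245 to 51562 in replicate 3. Replicate 1 lay wholly below the other numbers. The log2 fold was 0.57 (SE 0.047, adjusted p = 3.39e-07 by limma) for replicate 2 and 0.51 (SE 0.047, adjusted p = 6.89e-07) for replicate 3. Rpl41, which encodes the smallest ribosomal protein, went from a median of 12521 in replicate 1 to 16311 and 16903, with no overlap, and rose by 0.36 and 0.46 (adjusted p = 1.45e-06 and 1.07e-07).

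The stalk genes and Rpsa moved the same way. Rplp0 ran from 45401 over 50019 to 57090 in replicate 1, from 60379 over 66265 to 70208 in replicate 2 and from 57751 over 62682 to 66320 in replicate 3. Both other numbers lay above replicate 1 without overlap, with log2 folds of 0.37 and 0.29 (SE 0.041; adjusted p = 5.68e-06 and 4.68e-05 by limma). Rplp1 rose by 0.20 and 0.21, Rplp2 by 0.25 and 0.27, and Rpsa by 0.18 and 0.27. For Rpsa the replicate 1 libraries reached 52510 and overlapped the others.

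Among the genes of smallest p, Rps26 rose by 0.37 and 0.38, Rpl18 by 0.33 and 0.34, and Rpl28 by 0.33 and 0.34 in replicates 2 and 3. The sequences around the starts of these 3 genes, printed above, hold runs of 9, 10 and 11 pyrimidines. Printed genes were chosen for having such a run, and whether runs go with the folds was not tested. Rps6 rose by 0.25 and 0.28, and Rpl11 by 0.19 and 0.32. Rps28 rose by 0.32 and 0.20, and between replicates 3 and 2 it fell by 0.12 (SE 0.036, adjusted p = 0.0136 by limma).

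Rps27l was 1 of several genes that were higher in replicate 3 than in replicate 2. Its signal ran from 2533 over 2871 to 3479 in replicate 1, from 2881 over 3377 to 3511 in replicate 2 and from 3541 over 3870 to 4115 in replicate 3. The replicate 3 libraries lay above all others. The log2 folds were 0.15 (replicate 2 over 1), 0.38 (3 over 1) and 0.22 (3 over 2, SE 0.044, adjusted p = 0.000806 by limma). Rpl35, at the exit tunnel, and Rpl36 also rose between replicates 2 and 3, by 0.22 and 0.17 (adjusted p = 0.00461 and 0.00112), as did Rpl8 by 0.15 (adjusted p = 0.00211). Rps27l was not called between replicates 3 and 2 in the DMSO libraries alone (0.19, adjusted p = 0.0526).

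**Figure D4:**
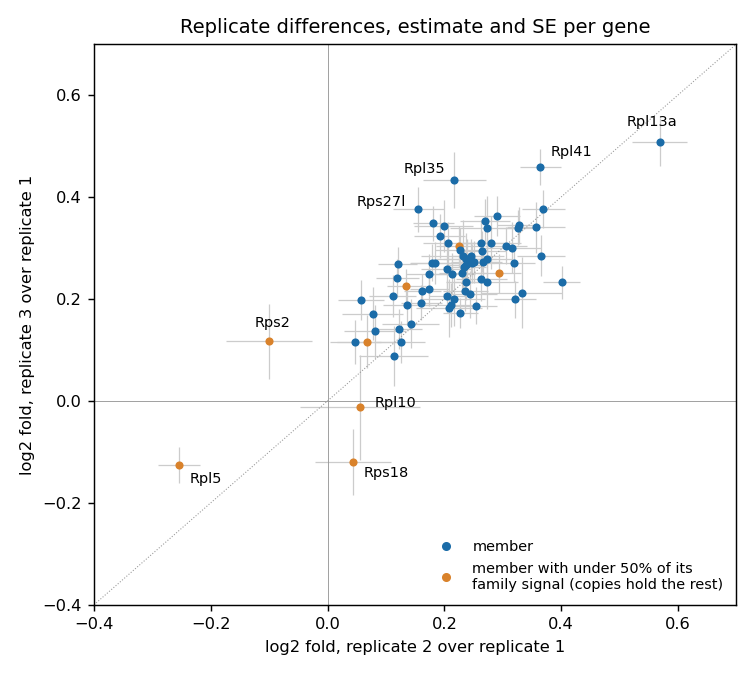
Log2 fold of replicate 2 over replicate 1 (horizontal) and replicate 3 over replicate 1 (vertical) for 76 ribosomal protein genes, with 1 SE either way; both axes share the replicate 1 libraries. Orange marks the genes that hold under 50% of their family's signal. Rps27, at 0.32 and 1.48 with an SE of 0.56, is not drawn. Most genes lie near 0.2 to 0.3 on both axes, and Rpl5 lies at -0.25 and -0.13.

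Rpl5 was the gene called lower in replicates 2 and 3. Its signal ran from 1850 over 1927 to 2019 in replicate 1, from 1506 over 1630 to 1720 in replicate 2 and from 1728 over 1768 to 1805 in replicate 3. The ranges of the 3 numbers did not overlap, replicate 1 being the highest and replicate 2 the lowest. It fell by 0.25 and 0.13 (SE 0.036; adjusted p = 5.16e-05 and 0.009 by limma). Summed with Gm15500, identical to it over the coding sequence, the family rose by 0.17 in replicate 2 and 0.12 in replicate 3 (SE 0.034; adjusted p = 0.0012 and 0.0107). The share of the family's signal listed under Rpl5 itself was 7.57% in replicate 1, 5.66% in replicate 2 and 6.40% in replicate 3.

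For the other genes that did not follow the rest, the family sum also rose. These genes hold 0.754% (Rps2), 4.07% (Rps27), 11.7% (Rps18) and 23.2% (Rpl10) of their family's signal. Such sums mostly follow the copies and do not show how the gene itself moved. Rps2 had -0.10 and 0.12 alone (adjusted p = 0.281 and 0.195 by limma) and 0.30 and 0.47 as a family, both called. Rps18 had 0.04 and -0.12 alone and 0.23 and 0.13 as a family, and Rpl10 0.06 and -0.01 alone and 0.27 and 0.15 as a family, all 4 family values called. Rps27 had 0.32 and 1.48 alone with an SE of 0.56, and 0.22 and 0.17 with an SE of 0.046 together with Rps27rt. With every gene summed with its copies, 72 of 77 were called higher in replicate 2 and 76 in replicate 3 (22.7% and 26.8% of all genes in that fit), and 0 were called lower.

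How far the genes moved together was described by the correlation of each gene with the median of the other members, over deviations of the 18 libraries from their group means. The median r was 0.926, and 65 of the 77 were over 0.8, with Rpl19 at 0.984 and Rpl4 at 0.981. Only 5 were under 0.5, namely Rpl5 (-0.636), Rps18 (-0.204), Rps2 (0.034), Rpl10 (0.163) and Rps27 (0.395), each of which holds under 50% of its family's signal. The other 4 genes of that kind had 0.842 (Rpl12), 0.91 (Rpl3), 0.961 (Rpl27a) and 0.747 (Rpl21). The points share libraries and the replicate 1 difference, so no p is given.

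Other lists were read in the same contrasts, where 22.7% and 26.7% of all genes were called higher in replicates 2 and 3 over 1. The other cytosolic ribosome components were called higher for 6 of 7 genes in replicate 2 and 7 of 7 in replicate 3, with Rps3a1 at 0.23 and 0.29 and Fau at 0.32 and 0.27. TOP translation factors had medians of 0.19 and 0.17, with 11 of 14 called higher in each, among them the elongation factor Eef2 (0.30 and 0.21). Nuclear respiratory chain genes had 0.16 and 0.15, with 56 of 84 called higher in each, and mitochondrial ribosomal protein genes 0.11 and 0.17, with 37 and 54 of 78 called higher.

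Ribosome biogenesis genes, whose products assemble the subunits in the nucleolus, took another course. In replicate 2 over 1 they had a median of -0.17, with 17 of 28 called lower and 1 higher (22.4% and 22.7% of all genes). In replicate 3 over 1 the median was 0.19, with 18 called higher and 1 lower (26.7% and 24.8%), and in 3 over 2 it was 0.31, with 24 called higher and 0 lower (22.5% and 21.5%). Rrp12, a ribosome export factor, fell by 0.32 in replicate 2 against 1 and rose by 0.54 in replicate 3 against 2 (adjusted p = 4.92e-05 and 2.72e-07 by limma). Bysl, a small-subunit assembly factor, fell by 0.23 and rose by 0.48. RNA polymerase I genes showed medians of -0.084, 0.044 and 0.13 in the 3 contrasts. Of the regulators, Larp1 fell by 0.14 in replicate 2 and rose by 0.15 in replicate 3, and Myc fell by 0.39 and 0.26.

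**Figure D5:**
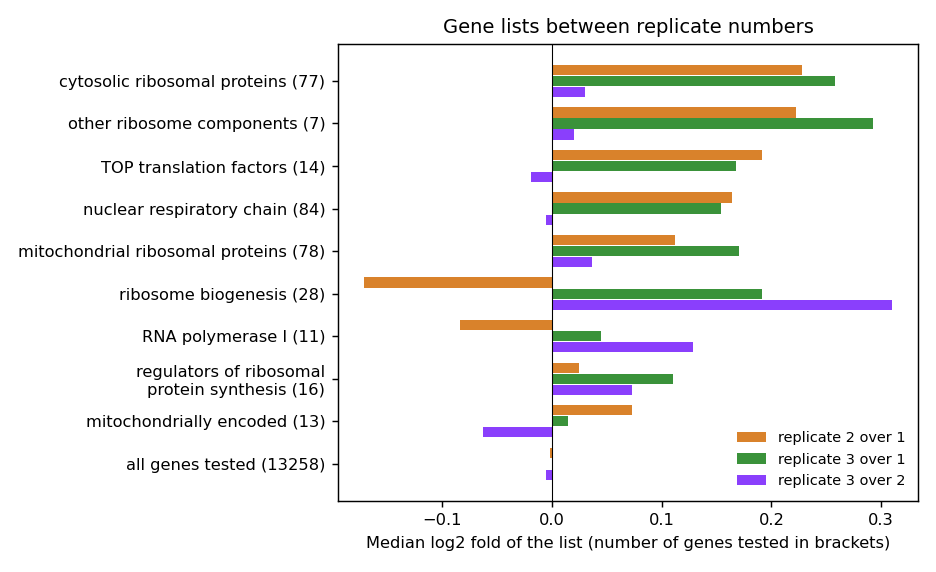
Median log2 fold of each gene list between replicate numbers (2 over 1 orange, 3 over 1 green, 3 over 2 purple), with the number of genes tested in brackets. The cytosolic ribosomal protein genes lie at 0.23, 0.26 and 0.031, and the ribosome biogenesis genes at -0.17, 0.19 and 0.31.

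Gene length and cell type markers also moved with the replicate number. In replicate 2 over 1, other genes with a coding length under 300 bases had a median of 0.11 and the 1732 genes of the longest class -0.067. In replicate 3 over 1 these were 0.14 and -0.021. With the trend on coding length removed, the median of the ribosomal protein genes was 0.14 for 2 over 1 and 0.17 for 3 over 1, with 53 and 60 genes called higher (23.2% and 26.6% of all genes in that fit). The summed signal of the 6 cholangiocyte markers was 69759 to 76864 in replicate 2, 51685 to 60385 in replicate 1 and 49643 to 54124 in replicate 3. That of the 20 hepatocyte markers was 178582 to 196748 in replicate 2, 206545 to 223202 in replicate 1 and 199310 to 222120 in replicate 3. These sums mainly follow a few genes. The largest terms were Krt8, Krt18 and Trf for hepatocytes (means 65277, 51486 and 45701) and Spp1 for cholangiocytes (41127). Macrophage marker sums were 5170 to 6207, 4959 to 6378 and 3813 to 5502 in replicates 1, 2 and 3, fibroblast marker sums 104 to 139, 142 to 176 and 158 to 233, and endothelial marker sums 16.6 to 32.4, 9.87 to 25.7 and 11.1 to 23.4. Alb, the main secreted protein of hepatocytes and 1 of the 20 hepatocyte markers, fell by 0.82 in replicate 2 and 1.03 in replicate 3 against replicate 1 (SE 0.037; adjusted p = 6.98e-10 and 3.89e-11 by limma). The sum of the 20 markers, of which Alb is a small term (mean 4568), did not follow Alb in replicate 3. There the range of the sum overlapped that of replicate 1. The part of these markers and of gene length in the replicate difference was not tested.

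The windows were also fitted one by one. Taking T24 to T30 alone, limma called 33 genes higher in replicate 2 and 26 in replicate 3 over replicate 1 (12.1% and 10% of all genes), with medians of 0.15 and 0.13. Taking T0 to T24 alone it called 64 and 71 (12% and 20.8% of all genes), with medians of 0.29 and 0.32. For replicate 3 over 1 the calls over all genes were thus also fewer in T24 to T30. The difference between windows was not tested.

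Vehicle libraries were set side by side by harvest time, without a test. The 3 tables were taken as normalized separately, and harvest time is tied to the start and length of the DMSO exposure. The share held by the 77 genes at harvest T24 was 2.90%, 3.68% and 3.52% in replicates 1, 2 and 3. At T20 it was 3.23%, 3.76% and 3.86%, and at T30 it was 3.39%, 3.82% and 3.74%. T24 was the lowest of the 3 harvests within each replicate number, while the ranges over replicates overlapped.

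By the share of the library total, 50 of the 77 genes were higher at T20 than at T24 in all 3 numbers (17.9% of all genes were) and 2 were lower (18.8%). For T30 over T24 the counts were 45 higher (21.2%) and 2 lower (20.7%). For T30 over T20 they were 13 and 3 (19% and 18.2%). The median difference of T30 over T24 was 0.23 in replicate 1, 0.033 in replicate 2 and 0.083 in replicate 3 on the log2 scale, and that of T20 over T24 was 0.16, 0.025 and 0.12, so both were smallest in replicate 2. Rpsa was higher at T30 than at T24 by 0.29, 0.15 and 0.20 in the 3 numbers, and Rpl41 higher at T20 than at T24 by 0.28, 0.20 and 0.32. Rps2 alone differed by -0.58, -0.63 and -0.14 between T30 and T24, while Rps2 summed with its copies, a sum of which it holds 0.754%, was higher at T30 by 0.17, 0.15 and 0.12.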

How the data were processed

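Poly(A) RNA of 18 AML12 libraries was sequenced as strand-marked libraries, per the labels' protocols. The authors deposited 1 table per window with 35551 genes and 6 libraries, holding normalized signal per gene. Each table was taken as scaled on its own, which the headers do not state. The counter, genome build and annotation are not named in the sources used here, beyond column names that end in quant.sf. Read depth is unknown. Symbols came from a gene name table for 35181 IDs, and GENCODE M21 and RefSeq gave locations, copies and promoters.

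A pseudocount of 1 was added before taking log2, so folds of weakly expressed genes come out too small. limma 3.58.1 (R 4.3.3) was run on genes whose mean reached 10 (variance trend, two-sided, Benjamini-Hochberg, threshold 0.05). Windows were fitted separately with replicate number as a block; the common effect, differences and replicate contrasts used all libraries. Deviations from group means correlated at 0.308 to 0.622 between the DMSO and the pemafibrate library sharing a number, in 9 of 9 pairs over 0.1. Between different numbers they correlated at -0.425 to -0.115. Deviations sum to 0 within a group, so these negative values follow largely from the positive ones. The pairing comes from the titles' numbers and the same-number correlations. Copies were found with BLAST 2.17.0. Of the tested genes 95.5% had a coding length. Harvest differences are log2 ratios after each library was scaled to its total, with a pseudocount of 0.03 on the CPM-like scale. The rule for named genes took the 5 members of smallest p in each comparison, the highest and lowest 5 folds of replicate 3 over 1, the stalk genes, Rpsa, Rps6, Rpl5, Rpl11, the paralog pairs, the highest and lowest levels and up to 3 genes of each list; Rps28, Rps13, Rps20, Rpl7a, Rpl27a, Rpl19, Rpl4, Hnf4a, Alb and the copies outside it were named after their values were seen. Other settings tried were pseudocounts, filters on low values, scalings, variance models, coding length, left-out replicates, averaged libraries and summed copies, the last chosen after seeing the data. Members and lists were chosen with earlier results of these data known. Of 14 RNA polymerase I symbols 11 matched. Single values of some genes are not reported here.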

Additional observations from a re-analysis of the deposited data

How the results depend on the processing

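No ribosomal protein gene was called for pemafibrate under any of the alternatives run. Without the replicate block limma called 0 of the 77 in each window and over the windows, and 0 genes in all within each window (at an unadjusted p under 0.05 there were 96 in T0 to T24, 77 in T14 to T20, and 126 in the last window; over the windows 140, with 2 called). With copies summed, the fold of Rps18 in T0 to T24 turned to 0.0066, and that of Rps2 for T0 to T24 minus T24 to T30 to 0.014. For replicate 2 over 1 the median was 0.14 with the coding length trend removed; the count higher was 33 in T24 to T30 alone; the count lower was 0 in T0 to T24 alone, 3 in T14 to T20 alone and 0 with copies summed. For replicate 3 over 1 the count lower was 2 when scaled to the signal outside the members or with the length trend removed, and 0 with treatments averaged, in DMSO libraries alone, in each window alone or with copies summed; in T24 to T30 alone 26 were higher, with a median of 0.13. For replicate 3 over 2 the counts higher and lower were 6 and 7 scaled outside the members, 6 and 6 by upper quartile, 4 and 1 with treatments averaged, 1 and 0 in DMSO libraries alone, 4 and 0 in T0 to T24 alone, 3 and 5 in T24 to T30 alone, and 4 lower with copies summed. The cause was not tested, except that averaging and subsets leave fewer libraries. The share of total signal held by ribosomal protein genes, 3.52% on average, was 3.97% with named pseudogenes and 4.38% with near-identical copies. Depth is unknown, so counting error cannot be given.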
